A study of Mus musculus with 4 samples.

Results

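B cells with high S100a6 and Ahnak mRNA were 583 of 29473 cell barcodes in single-cell RNA sequencing of antigen-specific splenic B cells from immunized mice. They were chosen by their own counts of unique molecular identifiers (UMIs, each 1 captured mRNA molecule). A barcode entered when its S100a6, S100a4 and Ahnak UMIs together reached 10 per 10000 UMIs (10 CP10K, the score below). It also had between 100 and 5500 detected genes, under 10% mitochondrial UMIs, under 50 CP10K of Jchain, no UMI of the cycling genes Mki67 and Top2a and no UMI of the T cell genes Cd3d, Cd3e, Cd3g and Trbc2. The filter on genes and mitochondrial UMIs alone kept 28550 barcodes, of which the members were 2.04%. Of these, 9303 passed all conditions but the score. The 8720 among them below the score of 10 are called the other non-cycling B cells here.

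The B cells carried the MD4 transgenic receptor for hen egg lysozyme (HEL) and had been transferred as a mixture into CD45.1+ wild-type recipients, which were immunized with HEL coupled to sheep red blood cells. On day 8, HEL+ CD95+ spleen cells were sorted by CD45 allele, and 6 recipients, told apart by 6 hashtag antibodies, were pooled in each library. CD45.1+ cells were Dock8 wt/wt without a BCL2 transgene in every recipient. CD45.2+ cells carried the B cell-restricted BCL2 transgene and were Dock8 wt/wt in 3 recipients (WT 1 to 3) or Dock8 cpm/cpm, an ENU-induced mutation described as DOCK8-null, in the other 3 (cpm 1 to 3). The study used mice of 8 to 12 weeks and of both sexes. By the study's design, the transferred cells of both groups shared the MD4 receptor, the sort for CD95 and the immunization. The CD45.2+ library held 24241 barcodes, 23467 of them kept and 430 members, and the CD45.1+ library 5232, with 5083 kept and 153 members.

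S100A6 and S100A4 are small calcium-binding proteins that act on other proteins at the membrane and the cytoskeleton, and AHNAK is a giant scaffold protein found beneath the plasma membrane. In the germinal center (GC), B cells driven by BCL6 divide in the dark zone and are selected in the light zone, while naive follicular, memory and recirculating B cells keep a different program of adhesion and migration genes. The study gave a cluster with S100a6, Ahnak, Vim and Myadm among its markers the name EarlyGC2.

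The rule genes and Vim, which encodes the intermediate filament vimentin and is 1 of the markers named by the study, are located by GENCODE M21 on GRCm38. S100a4 lies at chr3:90603771-90606045 and S100a6 at chr3:90612882-90624181, both on the + strand with 6.84 kb between them. A second pair of this family that was high in the members, S100a11 (chr3:93520488-93526287) and S100a10 (chr3:93555080-93564643), lies on the same chromosome with 28.8 kb between the genes. Ahnak is at chr19:8989284-9076914 and Vim at chr2:13573927-13582826, both on the + strand. The 250 bases before the RefSeq start (GRCm38.p6) are shown for each of the rule genes and for Vim. A high sum of the rule genes was fixed by the choice of members. UMIs of all the rule genes together were found in 126 of the 583 members (21.6%). Capitals mark CCACCC, the letters of a KLF-type motif, or its reverse complement GGGTGG.
S100a6, chr3:90612644-90612893, + strand: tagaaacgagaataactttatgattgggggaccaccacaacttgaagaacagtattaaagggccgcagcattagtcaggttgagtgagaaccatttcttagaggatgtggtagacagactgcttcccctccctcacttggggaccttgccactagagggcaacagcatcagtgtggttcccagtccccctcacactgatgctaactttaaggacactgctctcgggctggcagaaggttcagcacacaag
S100a4, chr3:90603520-90603769, + strand: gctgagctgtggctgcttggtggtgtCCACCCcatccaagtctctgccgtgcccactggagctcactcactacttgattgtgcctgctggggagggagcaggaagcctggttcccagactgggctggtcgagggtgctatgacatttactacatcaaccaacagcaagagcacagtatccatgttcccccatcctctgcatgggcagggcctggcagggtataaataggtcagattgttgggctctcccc
Ahnak, chr19:8989034-8989283, + strand: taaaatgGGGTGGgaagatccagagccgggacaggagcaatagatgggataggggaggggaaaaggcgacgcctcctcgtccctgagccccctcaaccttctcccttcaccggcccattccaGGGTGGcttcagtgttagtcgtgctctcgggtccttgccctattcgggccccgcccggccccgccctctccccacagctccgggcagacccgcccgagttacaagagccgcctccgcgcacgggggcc
Vim, chr2:13574061-13574310, + strand: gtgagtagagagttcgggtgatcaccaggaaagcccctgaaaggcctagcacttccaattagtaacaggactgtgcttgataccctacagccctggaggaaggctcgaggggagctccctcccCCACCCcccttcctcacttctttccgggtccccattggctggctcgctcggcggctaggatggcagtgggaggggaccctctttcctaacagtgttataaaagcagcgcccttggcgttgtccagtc
S100a6 held no such match, S100a4 and Vim 1 each and Ahnak 2, both on the reverse strand. Over all RefSeq genes, 28.1% of 32851 windows of this length held the letters on either strand. A match describes the letters only.

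Before the results, the hashtags and the labels were compared with the counts. Of the kept barcodes, 61.5% of the CD45.2+ and 93.5% of the CD45.1+ library had hashtag counts. A barcode was given to a mouse when its highest hashtag held at least 10 counts and at least 3 times the second. This placed 203 CD45.2+ and 130 CD45.1+ members in a mouse. In CD45.2+ barcodes of WT 1 to 3, Xist, transcribed from the inactive X chromosome, was at 1264, 1362 and 1180 counts per 1000000 UMIs (CPM) and Y-linked genes summed to between 7.89 and 14.1 CPM. In cpm 1 to 3, Xist was at 350, 316.5 and 285.7 CPM and Y-linked genes at 152, 131 and 161 CPM. The study's notes describe its WT CD45.2+ cells as male and its DOCK8-deficient ones as female, the opposite of these counts, and which of the notes and the hashtag table is in error was not tested. Kept CD45.2+ barcodes with a mouse numbered 2388, 3486 and 2087 in WT 1 to 3 and 229, 160 and 481 in cpm 1 to 3, fewer in every cpm mouse. Mice are therefore called by their hashtag label, and every direction between the labelled groups rests on it. Xist and Y-linked UMIs were both present in cpm 1 to 3, and their source was not tested. Dock8 itself cannot check the label, since an ENU-induced mutation need not change the mRNA level. Over all kept CD45.2+ barcodes it was at 98.1, 100.1 and 86.2 CPM in WT and 100.6, 91.8 and 92.0 CPM in cpm mice. Barcodes found in both libraries numbered 38, of which 1 CD45.2+ and 2 CD45.1+ were members.

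The score had no gap at its threshold. It was 0 in 63.3% of the CD45.2+ and 78.7% of the CD45.1+ non-cycling B cells, and the members form the upper end of a range, not a separate group. Just outside, at a score of 9 to 10, lay 62 CD45.2+ and 19 CD45.1+ barcodes, and just inside, at 10 to 11, lay 50 and 18. Vim was at 793 CPM just outside and 559 CPM just inside in CD45.2+ cells, and at 1325 and 1073 CPM in CD45.1+ cells. Cells on both sides of the threshold were therefore alike in order of magnitude, whereas cells with a score of 0 had 201 and 177 CPM of Vim. The median score of the members was 15.96 in CD45.2+ and 18.97 in CD45.1+ cells. It rested on a median of 9 and 12 UMIs of the rule genes, and on a single UMI in 20 and 4 barcodes. Ahnak UMIs were found in 89.1% of CD45.2+ and 86.3% of CD45.1+ members, S100a6 UMIs in 80% and 91.5% and S100a4 UMIs in 20.7% and 37.9%. S100a6 and Ahnak were both present in 301 and 119 members. In barcodes with 50 CP10K or more of Jchain, S100a6 UMIs were found in 8.28% and 1.84% and Ahnak UMIs in 12.3% and 2.62%. Whether these came from free RNA or from the cells themselves was not tested. The median UMI counts of these barcodes, 9360 and 10906, lay above the members' 5522 and 6356.

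**Figure D1:**
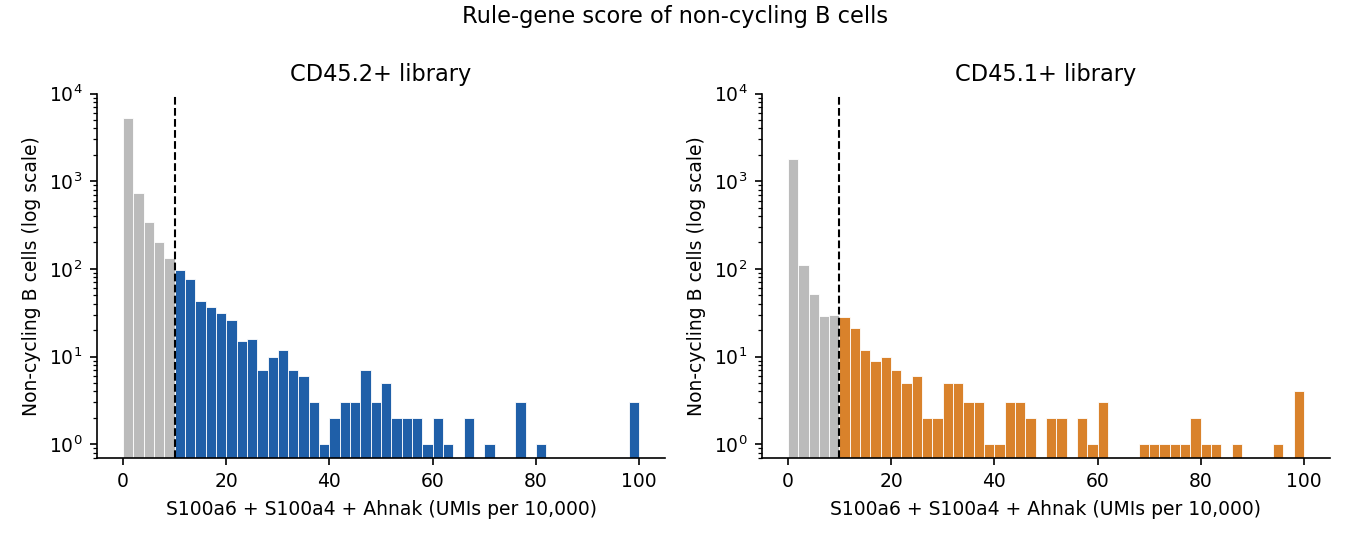
Number of non-cycling B cells (log axis) by score, the sum of S100a6, S100a4 and Ahnak in CP10K, in each library. The line marks the threshold of 10, and the last bar pools all scores of 98 or more. The counts fall without a gap across the threshold.

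The 4 marker genes that the rule did not use, Vim, Myadm, Zbtb32 and Pdlim1, were higher in the members than in the other non-cycling B cells of the same mouse and library in all 10 sets that held at least 10 members (CD45.2+ WT 1 to 3 and cpm 3, and CD45.1+ cells of all 6 mice). Because the members were chosen from the same cells, these differences are a description and carry no test. Vim was at 1012, 918, 1036 and 1218 CPM in the CD45.2+ members of WT 1, 2, 3 and cpm 3. In CD45.1+ members it was at 1332, 1851 and 1671 CPM in WT 1 to 3 and at 2003, 1565 and 1277 CPM in cpm 1 to 3. Every one of these lay far above the other cells, which ranged from 238 to 371 CPM, and the mean log2 ratio (with 10 CPM added to both levels) was 2.17 ± 0.36 (SD, n = 10 sets). Myadm, a myeloid-associated membrane protein that organizes membrane rafts, was at 119 to 286 CPM in the members and 16.3 to 44.7 CPM in the other cells, a log2 ratio of 2.41 ± 0.55. Summed per set, the members and the other cells did not overlap in either gene. Just outside the threshold, at a score of 9 to 10, Myadm was at 212 CPM in CD45.2+ and 124 CPM in CD45.1+ barcodes. Just inside, at 10 to 11, it was at 78.0 and 50.3 CPM, so a high level was not particular to the members.

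Pdlim1, a PDZ and LIM domain protein of actin fibers, was at 137 to 241 CPM against 30.1 to 62.2 CPM, a log2 ratio of 1.87 ± 0.57. Zbtb32, a transcription factor that restrains memory B cell recall responses, had a log2 ratio of 1.71 ± 0.59. Its lowest member levels were 50.1 CPM in the 11 CD45.2+ members of cpm 3 and 57.2 CPM in the 10 CD45.1+ members of cpm 1, against 39.7 and 18.7 CPM in the other cells of those sets. The remaining 8 sets had 117.5 to 216 CPM in the members. Those lowest levels came from members that held 59922 and 52425 UMIs of all genes, so they rest on few Zbtb32 UMIs. The markers were chosen with earlier results of these data known. Their higher level in the members is therefore no independent evidence for the label.

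**Figure D2:**
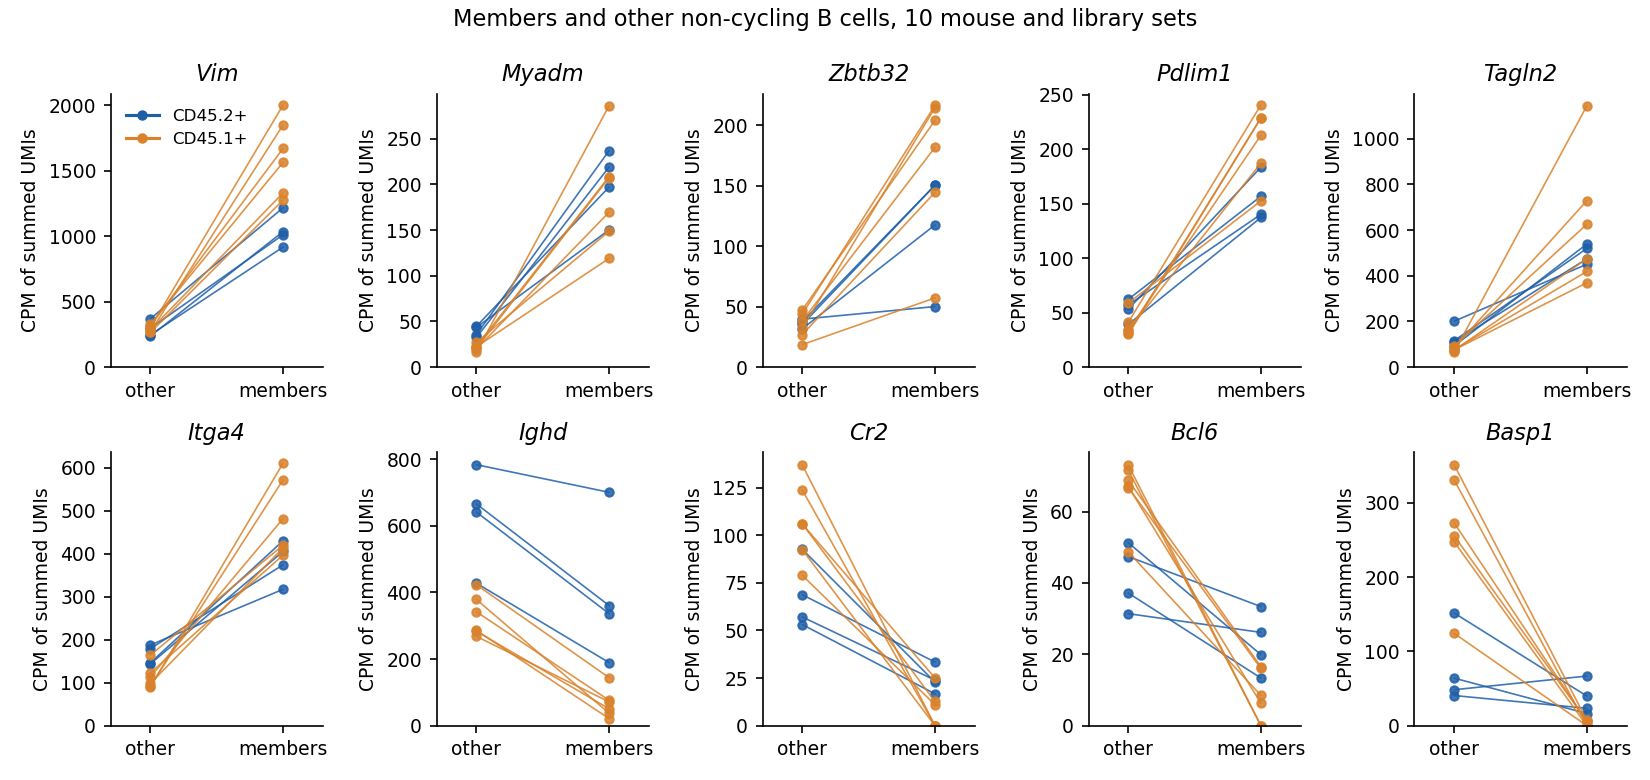
CPM of named genes in the other non-cycling B cells and in the members of each of the 10 mouse and library sets, with a line joining both values of a set (blue CD45.2+, orange CD45.1+). Vim, Myadm, Zbtb32 and Pdlim1 lie higher in the members in 10 of 10 sets, and Ighd lies lower in 10 of 10.

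Across 5401 genes with a UMI in at least 10% of members, 64 (1.18%) had a mean log2 ratio of 1 or more and 45 (0.833%) of -1 or less, with a median of -0.06. Genes low in the members drop out by this filter, so the balance of both counts was set in part by it. Over the 6992 genes that averaged 10 CPM or more over both classes, 68 were at 1 or more and 80 at -1 or less. The myeloid gene Lyz2, which is outside the ranking that follows, was at 3.35, and at -0.03 without the myeloid-marker barcodes described below. Among the 5401 genes, the rule genes led, as the choice of members fixed. S100a6 was at 4.94, Ahnak at 3.51 and S100a4 at 3.21. The next in order were Myadm, the actin-binding Tagln2 (2.41 ± 0.72), Vim, S100a10 (1.97 ± 0.69), which forms a complex with annexin A2, and the galectin Lgals1 (1.91 ± 0.48). Spn, which encodes the sialoprotein CD43, followed at 1.89 ± 0.54 and Pdlim1 at 1.87. Further down stood Lgals3 (1.73 ± 0.90), Zbtb32, the integrin alpha 4 gene Itga4 (1.67 ± 0.61), the arginine synthesis gene Ass1 (1.56), Itgam (1.54 ± 0.91), Sub1, Ckap4, Anxa2 (1.46 ± 0.62), Adgre5, which encodes CD97 (1.45), and Emp3 (1.43).

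By fixed lists, the same contrast ran through several gene groups. Of the EarlyGC2 list, which the study chose on these samples and which is therefore no independent evidence, 18 genes outside the rule were measured. All 18 had a ratio above 0, 13 of them a log2 ratio of 1 or more, with a median of 1.18 against -0.08 for all 6992 genes measured by level, of which 68 reached 1 and 80 were at -1 or less. The study's Activated_Memory list, chosen on the same samples, had a median of 0.60 with 6 of 20 genes at 1 or more, and its EarlyGC1 list 0.58 with 1 of 20. These lists share Klf2 with EarlyGC2. Klf2, a transcription factor of quiescent recirculating lymphocytes, had a log2 ratio of 1.27 ± 0.37. Summed per set, it was at 1114 to 1927 CPM in the members against 445 to 827 CPM in the other cells, without overlap. At scores of 9 to 10, outside the threshold, it was at 1349 CPM in CD45.2+ and 1194 CPM in CD45.1+ barcodes, within the members' range. S1pr1, the receptor by which lymphocytes leave tissue, had a ratio of 0.64 ± 0.43 and was higher in 10 of 10 sets.

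Of the S100, annexin and galectin genes, all 12 measured had a ratio above 0 and 6 reached 1 (median 0.88). Beside S100a10 these included S100a11 (1.36 ± 0.61). Among cytoskeleton-binding genes, 18 of 21 were above 0 and 8 reached 1 (median 0.54), among them the actin-capping gene Capg (1.08 ± 0.42), while the actin-sequestering gene Tmsb10 stood at 0.54 ± 0.25. Of 16 adhesion and migration genes, 4 reached 1 and 1 was at -1 or less (median 0.67). Itgb1, the integrin beta 1 gene, was at 100 to 457 CPM in the members and 84.0 to 134 CPM in the other cells (1.17 ± 0.58). The ranges overlapped, yet the members were higher within every set. Itgb7 (1.05 ± 0.68) was higher in 9 of 10 sets, Cxcr3, a chemokine receptor of activated and atypical B cells, in 10 of 10 (1.14 ± 0.51), and Gpr183, which guides B cells to the outer follicle, in 10 of 10 (0.77 ± 0.46).

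**Figure D3:**
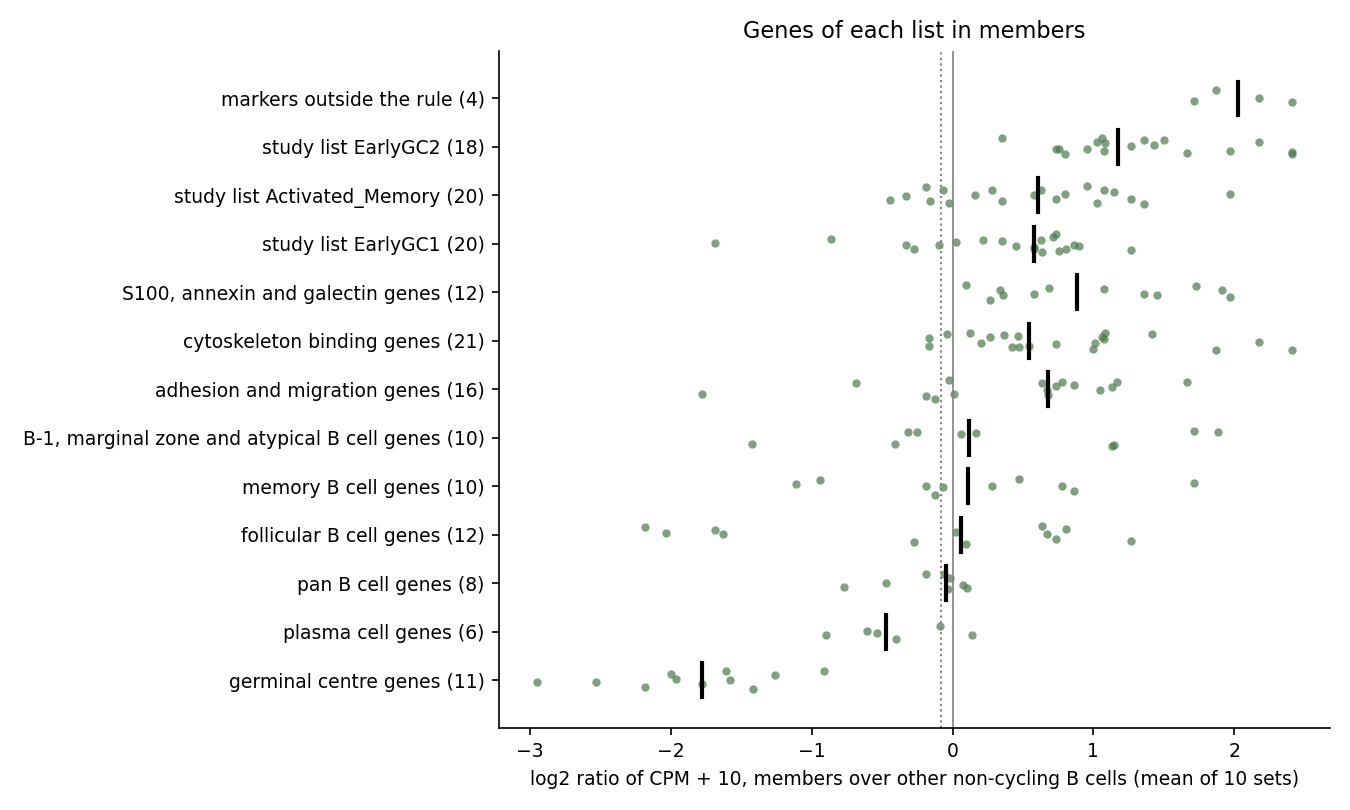
Mean log2 ratio of members over other non-cycling B cells for each gene (dot) of the fixed lists. Black bars are list medians and the dotted line is the median of all genes measured (-0.08). The 11 germinal center genes all lie below 0 and the 18 EarlyGC2 genes all above.

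GC genes ran the other way. Of 11 measured, all had a ratio below 0 and 10 were at -1 or less (median -1.78). Basp1 had a ratio of -2.95 ± 1.93, Rgs13, a regulator of chemokine signaling in GC B cells, of -2.54 ± 1.32, and Mef2b, a transcription factor upstream of BCL6, of -2.19 ± 1.42. Bcl6 was at 0 to 33.4 CPM in the members and 31.4 to 73.1 CPM in the other cells (-1.58 ± 0.98). S1pr2, which confines B cells to the GC, had a ratio of -1.78 ± 1.33. The size of these ratios depended on the pseudocount, the level added before the log, and with 1 CPM in place of 10 CPM they were -4.56 for Rgs13, -3.75 for Mef2b, -2.55 for Bcl6 and -3.28 for S1pr2. Summed over the 12 GC genes listed, the median member had 1.98 CP10K in CD45.2+ and 0 CP10K in CD45.1+ cells, against 3.72 and 5.14 CP10K in the other cells. The cells thus carried the EarlyGC2 markers with less of the core GC genes than other non-cycling B cells of the same sort. They are named here by their leading genes. Low GC genes were not particular to the members. In CD45.2+ barcodes at scores of 9 to 10, Bcl6, Mef2b, Rgs13 and Basp1 were at 33.5, 22.3, 16.8 and 44.7 CPM. The CD45.2+ members had 29.6, 14.0, 12.8 and 39.6 CPM. In CD45.1+ barcodes at scores of 9 to 10, all of these genes were at 0.

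Follicular genes were split, with 7 of 12 above 0 and 5 below (median 0.06). Klf2 and S1pr1 were on the higher side. Cr2 (complement receptor CD21) at -2.19 ± 1.12 (-3.42 with a pseudocount of 1 CPM), Fcmr (the Fc receptor for IgM) at -2.04 ± 1.62, Ighd (the IgD heavy chain) at -1.69 ± 0.98 and Fcer2a (CD23) at -1.63 ± 0.67 were on the lower side. Ighd was at 361, 336.5, 190 and 701 CPM in the CD45.2+ members of WT 1 to 3 and cpm 3, and between 21.4 and 144 CPM in CD45.1+ members. The other cells had more in every set, from 268 to 784 CPM. Memory B cell genes had no common direction, with 5 of 10 above 0 and 5 below (median 0.11). Cd80 (0.65 ± 0.59, and 1.21 with a pseudocount of 1 CPM) and Hhex (0.47 ± 0.55) stood above Cd38 (-0.07 ± 0.53) and Ccr6 (-0.19 ± 0.47). Of the B-1, marginal zone and atypical B cell list, 4 of 10 genes reached 1 (median 0.11), namely Spn, Zbtb32, Bhlhe41 (1.15 ± 0.64) and Cxcr3. A further 4 lay below 0, of which Dtx1, a regulator of Notch signaling, was at -1.43 ± 0.81 (-2.40 with a pseudocount of 1 CPM). Of 7 heavy chain genes measured, 4 lay above 0 and 3 below (median 0.11). None reached 1, and of these genes Ighd alone was at -1 or less. Ighm stood at -0.11 ± 0.24, Ighg3 at -0.17, Ighg1 at 0.11 ± 0.70, Ighg2b at 0.54, Ighg2c at 0.72 and Igha at 0.75.

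None of the 8 pan B cell genes reached 1 in either direction (median -0.05), with 2 above 0 and 6 below. Cd79a stood at 0.11 ± 0.12 and Ms4a1 (CD20) at -0.03 ± 0.15. The B lineage factors were lower, Pax5 at -0.77 ± 0.52, below the other cells in 10 of 10 sets, and Ebf1 at -0.47 ± 0.52. Plasma cell genes had a median of -0.47 (1 of 6 above 0), immediate early genes of -0.47 (1 of 8 above 0), cell cycle genes outside the rule of -0.50 (2 of 9 above 0) and type I interferon genes of -0.10 (1 of 5 above 0). Jchain, Mki67 and Top2a were limited by the rule, so the plasma cell and cell cycle lists were partly fixed by it. Dock8 was at 64.3 to 174 CPM in the members and 105 to 140 CPM in the other cells (0.03 ± 0.47, higher in 5 of 10 sets). RNA quality genes had a median of 0.22, and the median mitochondrial share was 2.82% in CD45.2+ and 2.61% in CD45.1+ members against 2.43% and 2.29%. Their part in the results was not tested.

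Markers of myeloid cells were the largest sign of other cells. In the members, the 10 genes summed to 331.5 CPM in CD45.2+ and 1201 CPM in CD45.1+ cells, against 94.7 and 76.2 CPM in the other cells. The most abundant were Tyrobp (103 CPM) in CD45.2+ and Lyz2 (642 CPM) in CD45.1+ members, whereas S100a8, S100a9 and C1qa were at 0 in both. A few barcodes held much of it in the CD45.1+ members. Those with 5 or more UMIs of Lyz2, Csf1r, Ccr2 and Fcer1g were 9 CD45.2+ members (2.09%) and 7 CD45.1+ members (4.58%). The 7 CD45.1+ barcodes had no UMI of the B cell genes Ms4a1, Cd79a or Cd79b, whereas all 9 CD45.2+ barcodes had UMIs of them (median 5). Without these 16 barcodes, which were singled out after their values were seen, the sums were 173 and 255 CPM, with Itgam (98.5 and 164 CPM), the CD11b gene that B-1 and atypical B cells also express, as the most abundant. Vim changed from 999.8 to 1009 CPM in CD45.2+ and from 1526 to 1539 CPM in CD45.1+ members when they were left out. T and NK cell markers summed to 27.6 and 2.07 CPM, with 2 and 10 of 11 genes at 0, and erythroid and platelet markers to 8.01 and 4.14 CPM, below the other cells in each case.

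Within the members, Vim was higher and Ighd lower at higher scores. In CD45.2+ cells, Vim was at 850 CPM at scores of 10 to 20 (284 cells), 1115 CPM at 20 to 40 (103 cells) and 1729 CPM at 40 or more (43 cells). In CD45.1+ cells it was at 1181, 1758 and 2046 CPM (80, 39 and 34 cells). Ighd in the same bins was at 440, 242 and 219 CPM in CD45.2+ and at 89.8, 65.7 and 4.95 CPM in CD45.1+ cells. Klf2 differed less, at 1279, 1378 and 1506 CPM in CD45.2+ cells. The myeloid gene Lyz2 was higher at higher scores in CD45.1+ cells, at 6.12, 117 and 2898 CPM in the 3 bins. In CD45.2+ cells it was at 70.5, 19.7 and 318 CPM, lowest in the middle bin. Its part in the differences between the bins was not tested. These are sums over cells of all mice of a library and carry no test. Members with Ahnak but no S100a6 UMI (82 and 13) had Vim at 803 and 1536 CPM and Myadm at 280 and 268 CPM. Those with S100a6 but no Ahnak UMI (43 and 21) had Vim at 501 and 1134 CPM and Myadm at 49.7 and 85.4 CPM. Myadm thus was higher beside Ahnak than beside S100a6 alone in both libraries. In the 47 CD45.2+ members under 2000 UMIs, Vim, S100a10, S100a11 and Lgals1 were at 173, 327, 135 and 38.5 CPM. The other non-cycling B cells of that library had more, at 274, 381, 263 and 85.1 CPM. Myadm (173 against 39.8 CPM) and Zbtb32 (154 against 28.5 CPM) were higher in these members. The 14 CD45.1+ members under 2000 UMIs had Vim at 1522 CPM, against 288 CPM in the other cells.

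The first comparison over mice asked whether the share of these cells differed between CD45.2+ cells of the labelled Dock8 genotypes. Members were 2.14% (51 of 2388), 2.52% (88 of 3486) and 2.16% (45 of 2087) of the kept CD45.2+ barcodes of WT 1 to 3. In cpm 1 to 3 they were 0.873% (2 of 229, 95% Wilson interval 0.240 to 3.13%), 3.75% (6 of 160, 1.73 to 7.94%) and 2.29% (11 of 481, 1.28 to 4.05%). The cpm mice lay on both sides of the WT mice, and their wide intervals, which cover counting error only, rest on few barcodes. The means were 2.30% ± 1.44 (SD, n = 3) and 2.27% ± 0.22 (n = 3), a difference of 0.03 percentage points (two-sided exact permutation test, p = 1). With 3 mice against 3 the smallest possible p is 0.1.

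CD45.1+ cells, Dock8 wt/wt in every recipient, gave the same comparison without a genotype difference of the cells. Members were 2.61%, 3.51% and 2.72% of kept CD45.1+ barcodes in WT recipients and 1.53%, 5.14% and 2.61% in cpm recipients. Again cpm 1 was the lowest and cpm 2 the highest of all 6. The means were 3.09% ± 1.85 and 2.95% ± 0.49 (n = 3 each, exact permutation test, p = 1). Within a mouse, the CD45.2+ share minus the CD45.1+ share averaged -0.79 points in cpm and -0.68 points in WT mice (exact permutation test, p = 0.8), and it was below 0 in 6 of 6 mice. As a percent of the non-cycling B cells it was below 0 in 4 of 6, the exceptions being WT 3 and cpm 3 (5.85% against 5.32%).

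**Figure D4:**
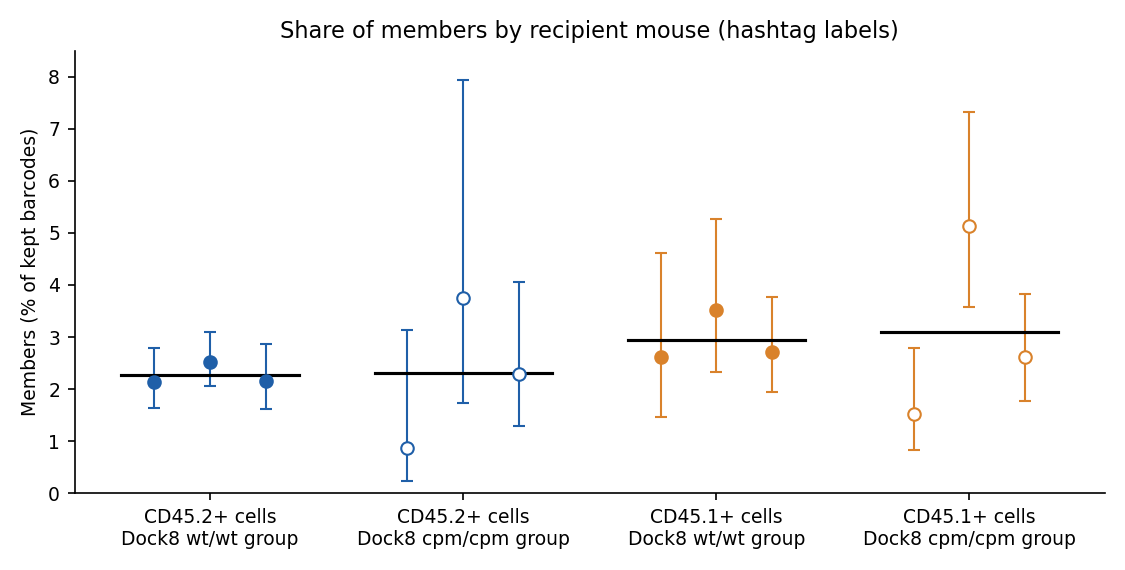
Members as a percent of the kept barcodes of each mouse, by library and labelled group, with 95% Wilson intervals that cover counting error only and black bars at the means. In both libraries cpm 1 is lowest and cpm 2 highest.

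Between the sorts of WT 1 to 3, the CD45.2+ share was lower in 3 of 3 mice, by 0.68 points on average (exact permutation test, p = 0.1, the smallest possible, and p = 0.25 paired by mouse). As a percent of the non-cycling B cells the direction turned, at 7.21% ± 1.02 in CD45.2+ and 7.15% ± 0.99 in CD45.1+ cells (p = 1, exact permutation test, n = 3 each). In single mice it was 6.04% against 6.29%, 7.89% against 8.24% and 7.71% against 6.94%, so the CD45.2+ share was still lower in 2 of 3 mice and the turn of the mean rested on WT 3.

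For genes within the members, the UMIs of each mouse's members were summed and tested by the quasi-likelihood method of edgeR, with Benjamini-Hochberg adjustment over all genes tested. Between the labelled Dock8 genotypes, only cpm 2 and cpm 3 held at least 5 CD45.2+ members (6 and 11), and they were set against WT 1 to 3. None of 4179 genes passed an adjusted p of 0.05 (0% called), while 231 had an unadjusted p under 0.05, and DESeq2 called 0 as well (145 with an unadjusted p under 0.05). None of the 18 EarlyGC2 genes outside the rule and none of the 4 markers passed. Vim was at 1339 and 1218 CPM in cpm 2 and 3 and at 1012, 918 and 1036 CPM in WT (log2 fold change 0.33 ± 0.19 SE, adjusted p = 0.89). Dock8 was at 48.7 and 167 CPM against 174, 155 and 137 CPM (-0.42 ± 0.44, adjusted p = 0.99). The smallest adjusted p was that of Ighg1, the IgG1 heavy chain, at 219 and 200 CPM in cpm 2 and 3 and 414, 468 and 569 CPM in WT (-1.25 ± 0.32, adjusted p = 0.25). Its groups did not overlap, but the difference did not pass the test. In simulated counts of this design, a 4-fold change was recovered in 56% of changed genes, and smaller changes were not simulated. All genes were simulated with the same dispersion, so genes that vary more between mice were not represented. With cpm 2 left out 2 genes and with cpm 3 left out 3 genes were called, on a single remaining cpm mouse.

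In CD45.1+ members of cpm against WT recipients, 1 of 1946 genes was called (0.0514%), Lyz2, the lysozyme of macrophages and neutrophils (log2 fold change -1.57 ± 0.30, adjusted p = 0.0056). It was at 0, 281 and 751 CPM in cpm 1 to 3 and 2407, 851 and 750.5 CPM in WT 1 to 3, and the groups overlapped. Without the myeloid-marker barcodes no gene was called, 80 having an unadjusted p under 0.05, and DESeq2 called 0 with all barcodes. The call was lost without WT 1 too (-0.97), and the log2 fold change was -2.60 without cpm 3. Vim (-0.08 ± 0.15) and Pdlim1 (0.06 ± 0.27) had an adjusted p of 0.999 each.

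The sorts of WT 1 to 3 differed more. CD45.2+ and CD45.1+ members of the same 3 mice differed in 132 of 3434 genes (3.84%), 51 higher and 81 lower in CD45.2+ members. The sorts differ by the BCL2 transgene, the donor and the library, which cannot be told apart. Mouse 2 weighed most, as 18 genes were called without it. DESeq2 called 72 genes, 20 higher and 52 lower, 66 of them among the 132. It gave no adjusted p to 2530 of the genes tested, among them 46 of the 132. Among the other non-cycling B cells, 193 of 9171 genes were called in the same contrast and 21 were called in both, which is 15.9% of the members' and 10.9% of the other cells' calls. Whether the members' differences departed from those of the other cells was not tested. Of 5 RNA quality genes, 1 was called higher in CD45.2+ members, Malat1 (0.58 ± 0.12, adjusted p = 0.0026). Another was called lower, mt-Atp6 (-0.44 ± 0.12, adjusted p = 0.022). The part of RNA quality in the differences between sorts was not tested.

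Of 11 follicular genes tested, 5 were called higher in CD45.2+ members and 0 lower (median log2 fold change 0.80), beside 51 of all 3434 genes called higher. The members of the list were not alike, with Klf2 at -0.25 (adjusted p = 0.36). Ighd was at 361, 336.5 and 190 CPM in CD45.2+ and 144, 21.4 and 50.9 CPM in CD45.1+ members (2.33 ± 0.31, adjusted p = 9.6e-07). In the other cells its log2 fold change was 0.82. Fcmr was at 73.5, 117.5 and 75.2 CPM against 32.1, 7.15 and 0 CPM (3.56 ± 0.58, adjusted p = 4.9e-05), with a log2 fold change of -0.26 in the other cells. It was 4.92 without mouse 1 and 2.65 without mouse 3. The sorts did not overlap in either gene. The others were Cd55, a complement regulator (1.03 ± 0.24, adjusted p = 0.0050), the transcription factor Foxp1 (0.81 ± 0.18, adjusted p = 0.0027) and the antiproliferative Btg1 (0.80 ± 0.15, adjusted p = 3.7e-04). Without mouse 2, Ighd and Fcmr remained called and Cd55, Foxp1 and Btg1 did not. Of 9 memory B cell genes 1 was called, Bach2, a repressor of plasma cell differentiation, at 134, 111.5 and 94.8 CPM against 32.1, 28.6 and 38.2 CPM (1.61 ± 0.35, adjusted p = 0.0027). It too lost its call without mouse 2. Ebf1, a B lineage factor (0.76 ± 0.17, adjusted p = 0.0040), was called and lost its call without mouse 2. Jchain, limited by the rule to under 50 CP10K in every cell, was higher in CD45.2+ members (1.17 ± 0.22, and 1.83 without mouse 2). DESeq2 did not call it (adjusted p = 0.17), and in the other cells its log2 fold change was 1.06.

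Bcl2 was at 204, 195 and 190 CPM in CD45.2+ members and 16.1, 42.9 and 55.1 CPM in CD45.1+ members (log2 fold change 2.003 ± 0.30, adjusted p = 9.2e-06), and its log2 fold change in the other cells was 1.93. UMIs of the transgene and of the mouse gene cannot be told apart in this count. Beside Fcmr, Ighd and Bcl2, the largest increases with all barcodes kept were those of Gm10800 (5.12 ± 0.50) and Snhg9, a small nucleolar RNA host gene (2.14 ± 0.39). Both were also higher in the other cells, by 3.35 and 2.37 on the log2 scale.

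Of 10 S100, annexin and galectin genes tested, 5 were called lower in CD45.2+ members and 0 higher (median -0.59), beside 81 of all 3434 genes called lower. S100a11 at -0.50 (adjusted p = 0.098) and Lgals9 at 0.09 were not called. The 5 were Anxa2 (-1.77 ± 0.33), Anxa5 (-1.65 ± 0.44), Lgals3 (-0.96 ± 0.22), Lgals1 (-0.79 ± 0.19) and S100a10 (-0.68 ± 0.15). Lgals3 lost its call without the myeloid-marker barcodes (-0.51, adjusted p = 0.29), and Anxa5 then no longer passed the filter on low counts. None of the 5 was called without mouse 2, and Anxa2 stood at -1.002 there. Anxa5 was at -1.02 without mouse 1. Of the 18 EarlyGC2 genes outside the rule 4 were called lower and 0 higher, namely Vim, Capg, Plac8 and S100a10. Vim was at 1012, 918 and 1036 CPM in CD45.2+ and 1332, 1851 and 1671 CPM in CD45.1+ members (-0.83 ± 0.14, adjusted p = 1.5e-04). Capg was at 458, 484 and 542.5 CPM against 835, 908 and 789 CPM (-0.85 ± 0.16, adjusted p = 2.7e-04). The sorts did not overlap in either gene, and the other cells had log2 fold changes of -0.18 and -0.01. Plac8 (-0.77 ± 0.14) was likewise lower. Of 14 adhesion and migration genes 1 was called, Itgb1, at 174, 209 and 216 CPM against 321, 457 and 360 CPM (-1.04 ± 0.19, adjusted p = 2.7e-04). All 4 of Vim, Capg, Plac8 and Itgb1 lost their calls without mouse 2, with the direction kept. As a description, the rule genes themselves stood at -0.96 for S100a6, -2.04 for S100a4 and 0.13 for Ahnak. S100a4 was at -1.28 without the myeloid-marker barcodes, at -1.32 without mouse 1 and at -2.64 without mouse 2, and the median score of the CD45.1+ members was higher, as given above. The scores of the sorts were not matched in this comparison.

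**Figure D5:**
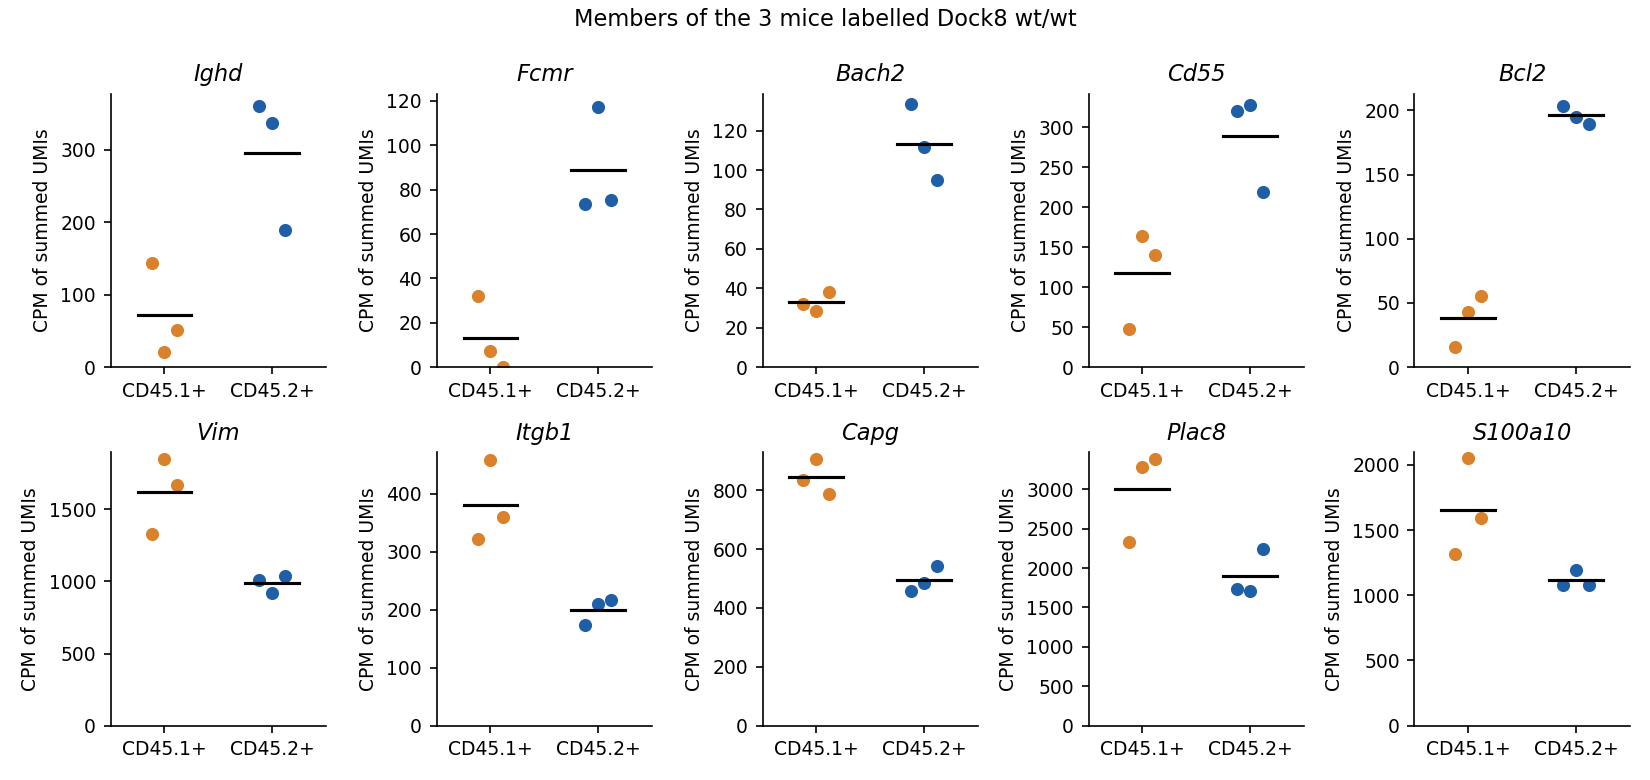
CPM of named genes in the CD45.2+ and CD45.1+ members of WT 1 to 3, 1 point per mouse and sort, with bars at the means. Ighd, Fcmr and Bcl2 lie higher in all 3 CD45.2+ samples than in any CD45.1+ sample, and Vim, Capg and Itgb1 lie lower.

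The largest decreases in CD45.2+ members were those of Lyz2 (-5.17 ± 0.36), Ly6c2 (-4.64 ± 0.48), Fcer1g (-4.44 ± 0.44), Ctse (-3.33 ± 0.46) and Ifitm3 (-3.33 ± 0.39). Of the myeloid list, 4 of 5 genes tested were called lower. Lyz2 was at 3.34, 75.7 and 0 CPM against 2407, 851 and 750.5 CPM. Without mouse 2 it was at -9.35 and Ifitm3 at -5.995. The myeloid-marker barcodes of these mice were 1 in the CD45.2+ and 4 in the CD45.1+ library, and without them Lyz2, Ly6c2, Fcer1g and Ifitm3 no longer passed the filter on low counts. Tyrobp, an adaptor of myeloid and NK cell receptors, went from -1.79 to -0.24 (adjusted p = 0.78). Ctse, an aspartic protease found in the endosomes of B cells and other antigen-presenting cells, kept its call. It was at 3.34, 7.96 and 19.6 CPM against 96.3, 78.6 and 110 CPM, and without those barcodes its log2 fold change was -3.44 (adjusted p = 5.3e-06). Its log2 fold change in the other cells was -3.86. Dock8, wild-type in both sorts, was at 174, 155 and 137 CPM against 112, 64.3 and 110 CPM (0.60 ± 0.26, adjusted p = 0.22).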

How the data were processed

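Splenic B cells of 6 mice were profiled in 2 mRNA and 2 hashtag libraries. The authors deposited whole-number UMI counts per gene and barcode and hashtag counts per barcode, without normalization. The submitters' processing notes name Cell Ranger 5.0.1, Seurat 4.0 and the build mm10. The deposited hashtag table gave the group and mouse of each hashtag. The kept barcodes held 193575523 UMIs in the CD45.2+ and 37112513 in the CD45.1+ library, with medians of 6890 and 5945. No doublet caller was run, and barcodes with hashtags of 2 mice were left without a mouse.

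The members and gene lists were chosen with earlier results of these data known, among them the rule and the 3-fold hashtag rule. The study assigned mice by HTODemux, and its own assignment was not used here. Reruns of HTODemux in Seurat 5.3.0 served as alternatives. Over each hashtag, HTODemux left 57, 44 and 101 kept CD45.2+ barcodes in cpm 1 to 3. Over each cell, it left 302, 145 and 468. CPM are counts per 1000000 UMIs of all genes. Ratios to the other non-cycling B cells used a pseudocount of 10 CPM and genes averaging 10 CPM or more over both classes (lists) or with a UMI in 10% of members (the ranking). Counts were summed per mouse with at least 5 members and tested in edgeR 4.0.16 (filterByExpr, TMM, quasi-likelihood, R 4.3.3) and p-values were adjusted by Benjamini-Hochberg (threshold 0.05). DESeq2 1.42.0 served as an alternative. Sex-linked genes were left out of the fits. Some genes of the lists are not reported here. Shares were compared by exact permutation (scipy 1.17.1). Named genes were those of the lists, Dock8, the 20 highest ratios, and the 5 largest changes in each direction among called genes whose groups did not overlap.

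Replicates are recipient mice, and no source used here says whether recipients of a group shared donor cells, so p-values measure the spread between these recipients. The sums were tested on simulated counts with 1 common dispersion for all genes, which leaves out differences in spread between genes. A 4-fold change was recovered in 56% of 200 changed genes between CD45.2+ genotypes. It was recovered in 87% between recipient groups of CD45.1+ cells and 84.5% between sorts. CD45.2+ and CD45.1+ cells with one hashtag come from the same mouse, which pairs them. The correlations of their deviations from the group means were 0.02, -0.01 and 0.06. Alternatives covered the hashtag rule, a score of 20, thinning to 2000 UMIs, stricter barcode filters, count filters, a pseudocount of 1 CPM, the replicate block, each mouse left out, and, chosen after seeing the data, leaving out myeloid-marker barcodes and barcodes shared by the libraries.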

Additional observations from a re-analysis of the deposited data

Results flagged for a closer look

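Hashtag counts were absent for 163 CD45.2+ members and 15 CD45.1+ members, which entered no comparison between mice, so that these signals lay outside the mouse comparisons. They were 1.81% of the 9028 kept CD45.2+ barcodes and 4.55% of the 330 kept CD45.1+ barcodes without hashtag counts. Among barcodes with hashtag counts the members were 1.85% and 2.90%. The CD45.2+ members without hashtag counts had Vim at 1042 CPM, Myadm at 240 CPM and Zbtb32 at 127 CPM, against 982, 195 and 122 CPM in those with them. S100a4 differed more, at 185.5 against 72.7 CPM, as did Lyz2 at 125 against 64.8 CPM and Fcer1g at 60.9 against 20.3 CPM. Of the 9 CD45.2+ myeloid-marker members, 1 was given to a mouse. The 15 CD45.1+ members without had Vim at 1039 CPM, against 1558 CPM in the 138 with hashtag counts. S100a4 (33 against 245 CPM), Lyz2 (49.5 against 681 CPM) and Fcer1g (0 against 104 CPM) were also lower there. The median UMI counts of members without hashtag counts were lower in both libraries, at 4679 against 6215 and 3811 against 6563.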

How the results depend on the processing

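The share of members kept no fixed direction between groups. For CD45.2+ cells of the labelled cpm against WT mice the difference of 0.03 points turned to -1.08 as a percent of non-cycling B cells, -0.724 and -0.0429 with HTODemux over each hashtag and over each cell, -0.119 at a score of 20 or more and -0.318 with stricter filters, and it ranged from -0.692 to 0.746 with each mouse left out. For CD45.1+ cells by recipient group, 0.14 points turned to -0.0902, -0.511 with HTODemux over each hashtag and -0.326 at the score of 20 or more, and rose to 1.73 with HTODemux over each cell (p = 0.1, exact permutation test), every cpm mouse above every WT mouse but with 26, 16 and 57 kept barcodes in cpm 1 to 3. It was -0.878 to 0.926 over mice left out. CD45.2+ against CD45.1+ in WT mice turned from -0.68 to 0.0588 as a percent of non-cycling B cells and otherwise lay below 0 (-0.777 to -0.521 with each mouse left out). Each p stayed at or above 0.1, the smallest the design allows.

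Genes called between CD45.2+ genotypes numbered 0, and 1 with HTODemux over each cell, 2 with no filter on low counts, 2 with stricter filters and 2 at a minimum of 10 members, both of these on cpm 3 alone, 1 with sex-linked genes kept (Xist) and 0 to 3 with each mouse left out. HTODemux over each hashtag and the score of 20 left too few members for a fit. Between recipient groups of CD45.1+ cells, 1 gene became 0 with HTODemux over each hashtag, thinned UMIs, stricter filters, DESeq2 or no myeloid-marker barcodes, 4 with no filter on low counts and 0 to 5 with each mouse left out. HTODemux over each cell could not be fitted. Between sorts, 132 genes became 46 with HTODemux over each cell, 48 at the score of 20, 243 with thinned UMIs, 72 with DESeq2, 79 with no filter on low counts and 18 to 74 with each mouse left out. With the mouse as replicate block 145 were called, 125 of them also without it, and no named call was lost. Of the named genes' values that these settings returned, 504 were kept, 63 lost the call and 0 reversed. In the gene tests, kept means the same direction and side of the threshold. For ratios to the other cells, it means a value within the SD over the sets. Genes that left a fit or had no adjusted p were not counted. Among these were Lyz2, Ly6c2, Fcer1g and Ifitm3 between sorts without the myeloid-marker barcodes. The cause of these changes was not tested, beyond the fewer cells or genes that a setting leaves. The cpm mice held only 2, 6 and 11 CD45.2+ members.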
